A study of Ambystoma mexicanum and Ambystoma andersoni and Ambystoma maculatum with 18 samples.

Results

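The 172 gene-level features described here come from the assembled transcripts of the spotted salamander, Ambystoma maculatum. All were already detected in the forelimb at the moment of amputation and were much more abundant at the cut 24 h later. They were chosen by their measured levels in the same 6 libraries that are described below, so the rise itself is the criterion and not a finding, and no test result is used in its support. A member had more than 3 counts at 0 h in all, a mean of at least 20 CPM at 24 h and a mean under 1000 CPM over the 6 libraries. Its lowest 24 h value was also at least 4 times its highest 0 h value. CPM is counts per 1000000 counts of a library, taken without its most abundant feature, which was itself left out. The remaining counts are called the rest of the library below. The table of A. maculatum listed 474849 features, of which 354898 had a count above 0 in some library, and the tables of all 3 species of the series listed 2262193.

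Larvae had their forelimbs amputated within the zeugopod, which is the lower arm, and RNA was sequenced from the outermost 1 mm of the stump. The A. maculatum groups were tissue taken 24 h after amputation (3 libraries) and tissue taken at amputation, 0 h (3 libraries). All animals of both groups were amputated in the same way, and each library pooled 5 larvae. The sample is the whole tip with all its tissues, so more cells of a type and more RNA per cell cannot be told apart. The series also holds the axolotl, A. mexicanum, and A. andersoni, in tables of their own.

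Salamanders regrow an amputated limb. In the first phase epidermal cells migrate over the cut and form the wound epidermis. Immune cells enter the stump and damaged matrix is broken down, before progenitor cells gather beneath the epidermis as a blastema. Injury acts on genes that resting tissue keeps at a low basal level as well as on genes that it keeps silent. The features carry names of assembly components and no gene names, a kind of name that a gene table does not use, and 0 of the 172 were found in the RefSeq gene table of the axolotl (assembly UKY_AmexF1_1). This says nothing about axolotl counterparts of the members. No gene, pathway, cell type or protein is assigned to any member, and the tissue could not be checked against marker genes. No sequence of the features was given, and none is shown. Members are therefore described by their place in the order of mean CPM at 24 h. Counts were not divided by length, which is not given, so this order is one of reads and not of molecules.

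The libraries held between 8037090 and 14703788 expected counts at 24 h and between 12200157 and 14826773 at 0 h. The most abundant feature took 44.4%, 64.5% and 51.9% of the counts of the 24 h libraries, against 23.7%, 20.7% and 24.9% in the 0 h libraries. The counts left for all other features were 4469984, 4627633 and 7079066 at 24 h, against 9304141, 11752817 and 10544626 at 0 h. Depth outside this feature was thus lower in every 24 h library than in every 0 h library, and the CPM used here are relative to it. On this scale the median log2 fold change of the 27360 features tested by edgeR, 24 h over 0 h, was -0.15, so changes of the members stand against a background near 0.

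The members together held 2.26%, 1.73% and 2.62% of the rest of the library at 24 h, against 0.153%, 0.132% and 0.136% at 0 h. The means were 2.20% ± 0.444 at 24 h and 0.140% ± 0.0108 at 0 h (SD, n = 3 each). The second 24 h library, which had the largest share of the most abundant feature, had the smallest share of members, and whether these are related was not tested. The median member had 56.4, 46.6 and 82.4 CPM in the 24 h libraries, against 3.65, 2.84 and 3.04 CPM in the 0 h libraries. These medians rested on 252, 215.5 and 583.5 counts at 24 h, and on 34, 33.5 and 32 counts at 0 h.

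**Figure D1:**
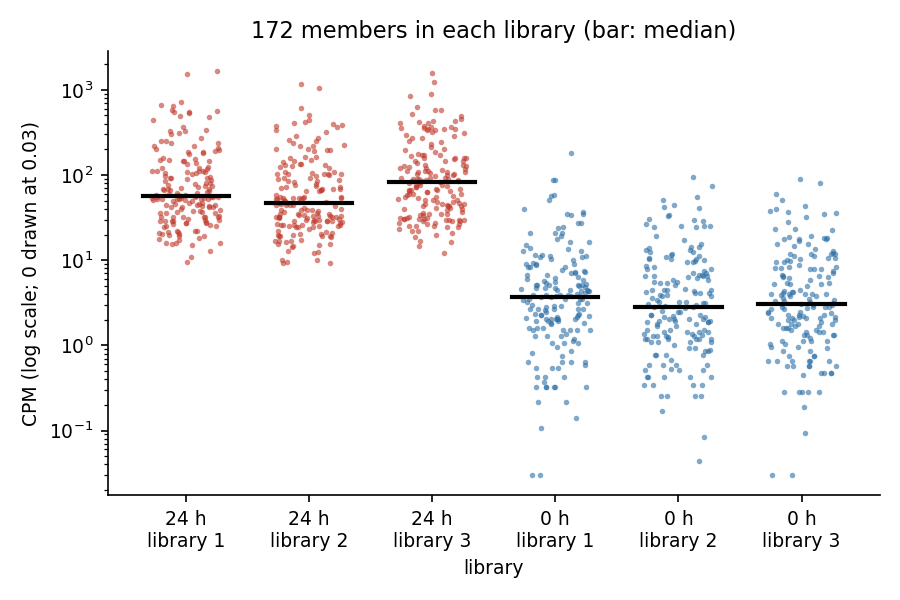
CPM of the 172 members (points, log scale) in the 3 libraries at 24 h (red) and the 3 at 0 h (blue), with the median of each library as a bar. The medians lie between 46.6 and 82.4 CPM at 24 h and between 2.84 and 3.65 CPM at 0 h. The ranges of the 2 times overlap between members, while no single member overlaps, by construction of the choice. Of all features with at least 20 CPM at 24 h and a mean under 1000 CPM, 34.0% had every 24 h library above every 0 h library.

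Mean levels at 24 h ranged from 20.1 to 1387 CPM with a median of 63.4, and mean levels at 0 h from 0.209 to 92.0 CPM with a median of 3.03. The fold change of the means ranged from 4.72 to 359, with a median of 17.2 and quartiles of 10.1 and 37.4. The ratio of the lowest 24 h value to the highest 0 h value, on which members were chosen, ranged from 4.05 to 125 with a median of 8.50. It was below 8 in 83 members, from 8 to below 16 in 37 and at least 16 in 52. The set was therefore made up in nearly equal parts of members close to the limit and of members well beyond it.

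Members belonged to a larger group of 4170 features with at least 20 CPM at 24 h and a mean under 1000 CPM, of which they made up 4.12%. The median log2 fold change was 4.11 for the members and 0.25 for the whole of that group, a gap that the choice favours. A further 5 features met every condition except that they had 3 counts or fewer at 0 h, and another 2 met every condition except that their mean was 1000 CPM or more. Of the 177 features that met all conditions when any count at 0 h was enough, 172 were thus members.

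**Figure D2:**
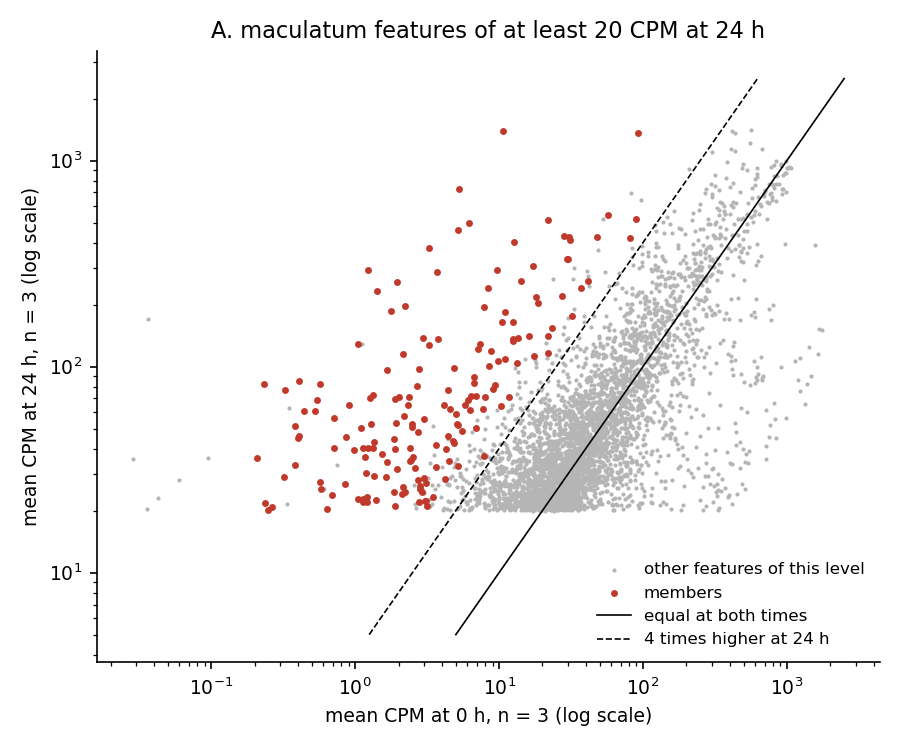
Mean CPM at 24 h (vertical) against mean CPM at 0 h (horizontal), both on log scales and over 3 libraries each, for the 4170 features of at least 20 CPM at 24 h and under 1000 CPM on average, with the 172 members in red. The members lie left of the dashed line of a 4-fold increase by construction, and they span 0 h means from 0.209 to 92.0 CPM.

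All 172 members passed the filter on low counts and were called higher at 24 h by edgeR's quasi-likelihood test across the whole table, at an adjusted p threshold of 0.05. The test called 22% of all tested features in either direction and 10.2% higher at 24 h. Since members were chosen on the same contrast, nothing is read from this count. Members made up 6.16% of the 2791 features called higher. Their median log2 fold change with TMM normalization was 4.20, against 1.67 over all features called higher, a gap that the choice favours. Without the second 0 h library 3486 features were called in place of 6012.

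The member with the most reads at 24 h was Mac_TR86348_c0_g2. It had 1531, 1042 and 1589.8 CPM in the 24 h libraries, against 10.9, 11.2 and 9.58 CPM in the 0 h libraries. The 24 h libraries lay far above the 0 h libraries, with means of 1387 ± 301 CPM at 24 h and 10.6 ± 0.866 CPM at 0 h (SD, n = 3 each), and the lowest 24 h library was 92.8 times the highest 0 h library. The log2 fold change of the means was 7.04, on 334 counts at 0 h in all.

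Among members with at least 10 counts in each 0 h library, Mac_TR78229_c5_g1 had the widest gap between the times. It had 670.2, 619.3 and 893.9 CPM in the 24 h libraries, against 5.16, 5.36 and 5.22 CPM in the 0 h libraries. Its means were 728 ± 146 CPM at 24 h and 5.25 ± 0.104 CPM at 0 h (SD, n = 3 each), a log2 fold change of 7.12, and its lowest 24 h library was 116 times its highest 0 h library. It was also the third member in the order of levels at 24 h. Both features had whole-number counts in every library, and whether any of their reads also fitted other features was not examined. Mac_TR78229_c5_g1 was the only feature listed for its assembly component, while the component of Mac_TR86348_c0_g2 listed 3.

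The first 12 members in the order of 24 h levels did not share one basal level. The second member had 1664, 1168 and 1233 CPM at 24 h, against 182, 42.6 and 51.2 CPM at 0 h. Its first 0 h library stood far above the other two, and the fold change of its means, 14.7, was well below that of the first member although both had nearly the same level at 24 h. The fourth member had 557, 509 and 574 CPM at 24 h, against 58.2, 55.1 and 59.3 CPM at 0 h, with little spread at either time. The fifth member had 649, 379 and 527 CPM at 24 h, against 87.0, 93.8 and 88.8 CPM at 0 h, the smallest ratio of lowest to highest value of all members. Feature 7 in the order had 476, 384 and 633 CPM at 24 h, against 8.24, 6.47 and 3.81 CPM at 0 h, a fold change of 80.6. Feature 8 had 492, 404 and 489 CPM at 24 h, against 11.2, 2.04 and 2.37 CPM at 0 h, so that its even level at 24 h stood beside an uneven one at 0 h. Feature 11 was uneven at 24 h, with 183.0, 258 and 836 CPM, against 20.6, 33.0 and 38.1 CPM at 0 h. Levels at 24 h within this top group thus hid 0 h levels that ranged from 5.20 to 92.0 CPM.

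**Figure D3:**
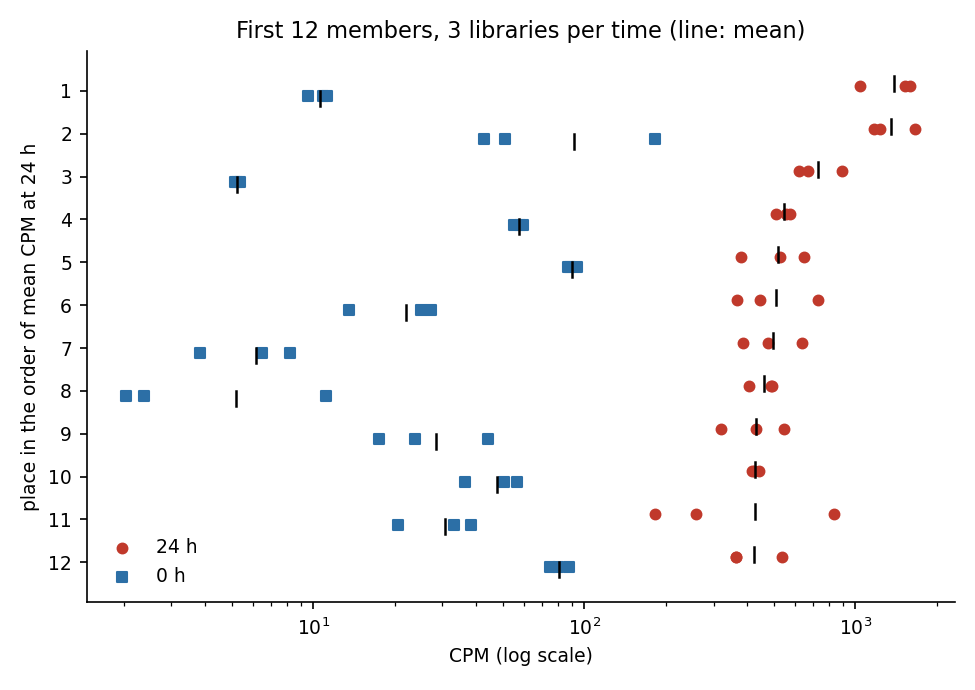
CPM (log scale) of the 12 members with the highest mean at 24 h, one row each from the highest downwards, with the 3 libraries at 24 h as red circles, the 3 at 0 h as blue squares and the mean of each time as a short line. The 24 h means lie between 421 and 1387 CPM while the 0 h means lie between 5.20 and 92.0 CPM, and the second, eighth and eleventh rows show 1 library far from the other 2 of its time.

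Reads at 24 h were concentrated in few members. The first 2 members held 12.5% of the summed 24 h level, the first 10 held 31.2%, and 23 members held at least as much as all the others together. By mean level at 24 h, 68 members lay from 20 to below 50 CPM, 47 from 50 to below 100, 51 from 100 to below 500, and 6 at 500 CPM or more. Median log2 fold changes of these classes were 4.10, 4.42, 3.80 and 4.21, with no order from low to high.

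Grouped by basal level, 26 members had a 0 h mean below 1 CPM, 81 from 1 to below 5, 47 from 5 to below 20, and 18 of 20 CPM or more. The median level at 24 h in these classes was 42.6, 40.3, 109 and 373 CPM, and the median log2 fold change was 6.48, 4.33, 3.48 and 3.08. The decline of the fold change over these classes is partly set by the choice of members, since a 0 h mean below 1 CPM and a 24 h mean of 20 CPM already require a large ratio. Across the 172 members, which come from the same libraries, Spearman's rho between mean levels at 24 h and at 0 h was 0.63, as a description. The condition of at least 4 times the highest 0 h value raises the lowest possible 24 h level along with the 0 h level. Part of this rho, and of the higher 24 h medians in the upper classes, is therefore set by the choice. Members of higher basal level also varied less between libraries of a time. Counting noise is larger at low counts, and its part in this was not tested. The median coefficient of variation (SD as a percentage of the mean) at 24 h was 40.3%, 37.4%, 26.3% and 22.6% from the lowest to the highest basal class, and at 0 h it was 49.5%, 31.2%, 22.7% and 18.6%.

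The lowest basal levels rested on few reads. The 172 members had between 7 and 2847 counts at 0 h in all, with a median of 95.5, and between 329 and 22918 counts at 24 h. Of the 172, 129 had at least 10 counts in each 0 h library, and 4 had 0 counts in at least 1 of them. The largest fold change of the means, 359, belonged to a member with 7 counts at 0 h. It had 52.6, 9.29 and 186 CPM at 24 h, against 0.322, 0.0851 and 0.285 CPM at 0 h, and was the member with the largest spread at 24 h. The member with the largest ratio of lowest 24 h to highest 0 h value, 125, had 93.3, 53.6 and 83.5 CPM at 24 h, against 0.430, 0.255 and 0.285 CPM at 0 h, on 10 counts. Fold changes of this size at such counts are less precise than those of the 2 members given by identifier.

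Members came close to the limits of ratio and level and stayed further from the other limits. The member nearest the 4-fold limit had a ratio of 4.05, and the nearest feature outside it had 3.91, with 27.1, 15.6 and 20.2 CPM at 24 h, against 3.98, 3.23 and 2.75 CPM at 0 h. The member nearest the limit of 20 CPM had a 24 h mean of 20.1 CPM, and the nearest feature outside had 19.6 CPM. At the limit of 3 counts the nearest member had 7 counts at 0 h and the nearest feature outside had 3, with 39.9, 10.8 and 57.5 CPM at 24 h and 0, 0 and 0.285 CPM at 0 h. At the upper limit the member with the highest mean over the 6 libraries had 724 CPM, and the nearest feature outside had 1024 CPM, with 1980.0, 1472 and 1697 CPM at 24 h, against 352, 358 and 288 CPM at 0 h.

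The 3 libraries of 24 h were not alike in the members on the CPM scale of the choice. The highest 24 h library was at least 2 times the lowest in 73 members and at least 3 times in 28, with a median ratio of 1.87 and a largest ratio of 20.1. The coefficient of variation at 24 h had a median of 31.6% and was over 50% in 39 members, and at 0 h its median was 29.2%. Because the lowest 24 h library had to clear the limit, features with 1 weak 24 h library were less likely to become members. Of the 172, 36 had fewer than 20 CPM in their lowest 24 h library. On this scale a similar offset of the libraries as wholes was seen in the 3998 other features of this level. Their ratios and coefficients of variation are not given here. The median log2 distance from the 24 h mean was -0.01, -0.37 and 0.25 in the 3 libraries for members, against 0.07, -0.29 and 0.17 for those others. With sizes adjusted by TMM it was 0.05, -0.06 and -0.05 for members, against 0.11, 0.01 and -0.15.

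On the CPM scale of the choice, 101 members were highest in the third 24 h library, 60 in the first and 11 in the second, and 115 were lowest in the second. The second was lowest for 66.9% of members and for 65.5% of the other features of this level. With sizes adjusted by TMM these values were 34.3% and 25.9%. Of the members 58.7% were highest in the third 24 h library, against 54.6% of the 3998 other features of this level, so the same library led in both. The order depended on the scaling. With sizes adjusted by TMM, 62 members were highest in the third, 72 in the first and 38 in the second 24 h library. On that scale 36.0% of members were highest in the third, against 19.0% of the other features of this level. Of the 27041 tested non-members with a count at 24 h, 36.6% were highest in the third with TMM. On the CPM scale of the choice it was 62.1% of them. The TMM-adjusted size, divided by the counts of the rest of the library, was 1.53, 1.29 and 1.97 for the 24 h libraries and 1.61, 1.69 and 1.94 for the 0 h libraries.

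At 0 h, members differed from other features of this level in how often each library was highest. The level was set at 24 h, and the sets were not matched at 0 h. The median log2 fold change was 4.11 for members and 0.25 for the whole group of this level, so members were mostly lower at 0 h. The first 0 h library was highest for 83 members, 48.3%, against 25.5% of the other features of this level, whose levels were highest in the third 0 h library in 55.7% of cases. With TMM the first 0 h library was highest for 100 members, 58.1%, against 42.3% of the others. On that scale it led among the others as well, with 30.1% highest in the second and 27.6% in the third. In 12 members the first 0 h library was at least 2 times each of the other two, which was so for the second 0 h library in 2 members and for the third in 3. The second and eighth members in the order of 24 h levels were among those 12. The member median of the first 0 h library was 3.65 CPM, against 2.84 and 3.04 CPM in the second and the third, a small gap beside the 46.6 CPM of the lowest 24 h library. This comparison over features carries no test, since all features come from the same 3 libraries.

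**Figure D4:**
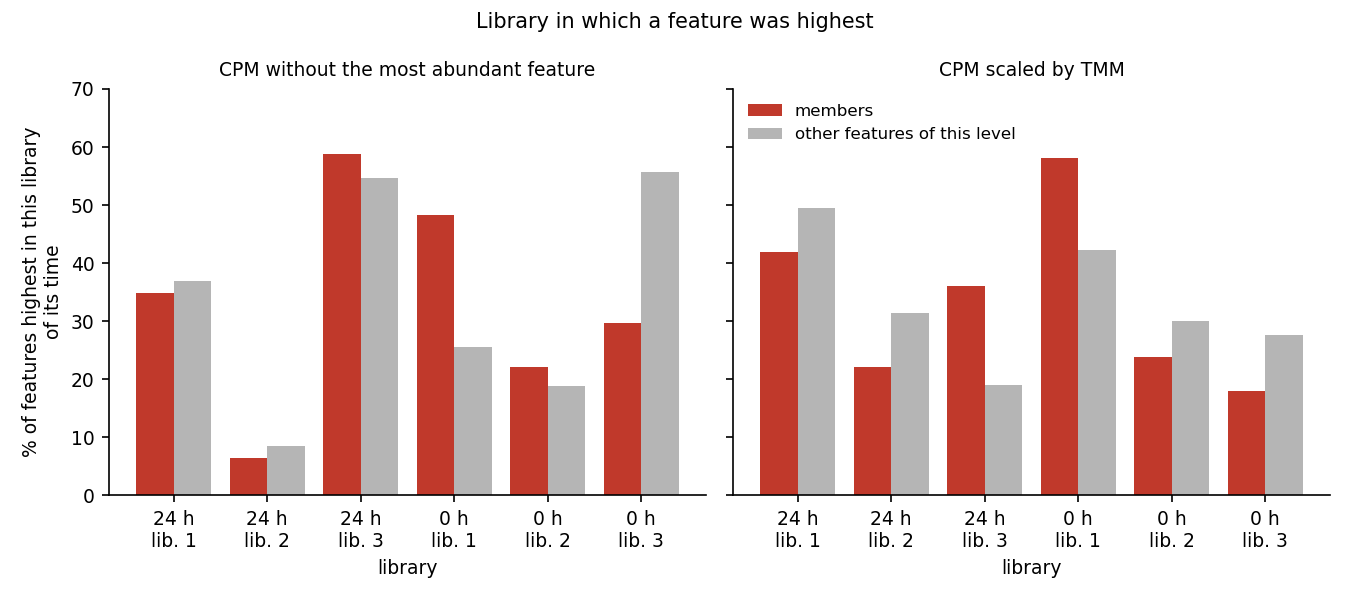
Percentage of features whose highest value among the 3 libraries of a time fell in each library, for the 172 members (red) and the 3998 other features of this level (grey), with CPM over the rest of the library on the left and CPM scaled by TMM on the right. At 24 h the order of libraries changes with the scaling, while the first 0 h library is highest in 48.3% and 58.1% of members under both scalings, above the 25.5% and 42.3% of the other features.

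Identifiers give an assembly component and a feature number within it, and features of 1 component may be parts, forms or near copies of 1 gene. The 172 members came from 141 components. Of these, 118 had 1 member, 16 had 2, 6 had 3 and 1 had 4, so 54 members shared their component with another member and are not independent of it. This was 31.4% of members, against 20.2% of features of this level that shared a component with another feature of this level. Over all features tested by edgeR, 35.1% shared a component with another tested feature, so the members' share lay between these values. The sets differ in size, which bears on how often a feature finds a partner within its set. Only 44 members, 25.6%, were the sole feature of their component, against 38.0% of the other features of this level.

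The component with 4 members consisted of those 4 features only. Their means at 24 h were 293, 56.2, 51.4 and 35.9 CPM, against 1.22, 0.716, 0.379 and 0.209 CPM at 0 h in the same order. Their log2 fold changes were 7.91, 6.30, 7.08 and 7.42, all far above the median member. These rested on only 38, 24, 12 and 7 counts at 0 h in all, against a member median of 95.5. Each of the 4 features also had a non-whole expected count in at least 1 library. Across the 40 pairs of members that shared a component, the median absolute difference in log2 fold change was 0.48, against 1.31 across the 14666 pairs from different components. For the log2 ratio of the first to the second 24 h library the median difference was 0.39 within components and 0.57 between them. For the ratio of the third to the second it was 0.90 within components and 0.62 between them, so closeness within a component was not found in every measure.

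Division of reads among similar features touched members more often than others. A non-whole expected count in at least 1 library, a sign that reads were shared out, was found in 69 members, 40.1%, against 21.8% of the other features of this level. It was found in 67 of the 128 members with other features in their component and in 2 of the 44 without. Median log2 fold changes were 4.59 for members with a non-whole count and 3.86 for members with whole counts throughout. Values with a non-whole count are uncertain by the counts that neighbours could trade.

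The components of the members held 231 further features that the choice had not taken, and most of those that could be tested were also higher at 24 h. Of these 231, 71 passed the filter of edgeR, in 46 components, and 160 did not. Among the 71, 58 rose, 1 fell and 12 did not pass the adjusted p of 0.05, so 81.7% rose, against 10.2% of all tested features and 9.86% of the tested non-members in components of several features. Their median log2 fold change was 3.01 with quartiles of 2.45 and 4.02, against 4.20 for members and -0.01 over all tested features on the same TMM scale. Together the 231 features held 0.605%, 0.440% and 0.680% of the rest of the library at 24 h, against 0.0703%, 0.0641% and 0.0619% at 0 h, with no overlap. These sums include 1 feature of 1000 CPM or more, whose part was not separated, so they do not describe the 231 features evenly.

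Most of these 71 neighbours stayed outside the choice by the minimum level, the ratio or both, and 1 had 1000 CPM or more. Of the 71, 53 had a mean under 20 CPM at 24 h and 51 had a ratio of lowest 24 h to highest 0 h value under 4. Both held for 34, the level alone for 19 and the ratio alone for 17. Features that are low at 0 h can pass the filter on low counts through their 24 h libraries alone, which favours rises. Among the 31 neighbours with at least 10 counts in each 0 h library, 21 rose, or 67.7%, against 8.53% of the 23768 non-members that met the same minimum. Among the 27 neighbours with whole counts throughout, 20 rose. The neighbours come from the same libraries and may share reads with members, so they are no independent replicate of the members' change, and no test was made of the share that rose.

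The 1 neighbour that fell lay in a component whose member was higher at 24 h. It had 0, 0.216 and 0.424 CPM at 24 h, against 8.49, 5.53 and 7.11 CPM at 0 h, while the member of that component had 199, 162 and 407 CPM at 24 h, against 2.26, 0.766 and 2.85 CPM at 0 h. The counts of both were whole in every library. This pair was picked after its values were seen.

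**Figure D5:**
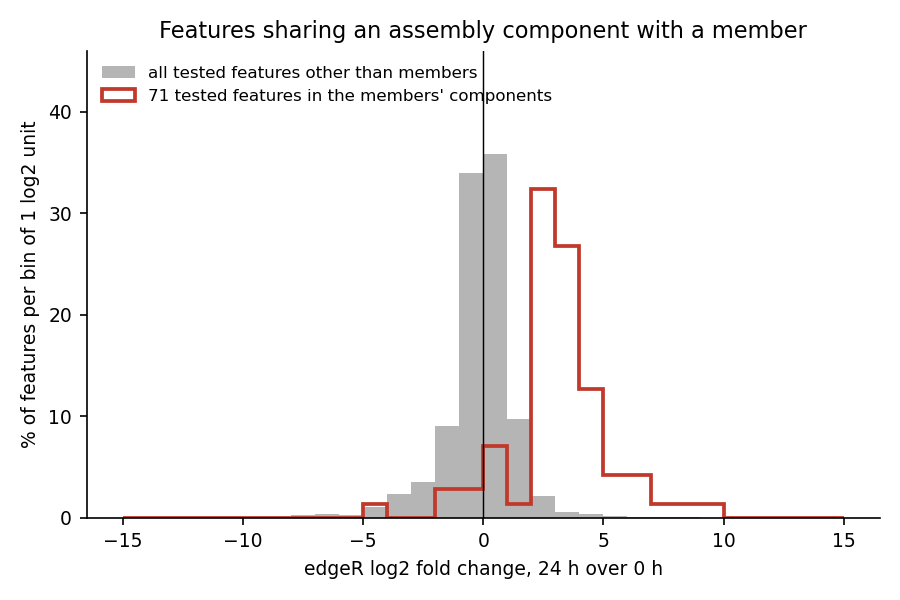
Distribution of the edgeR log2 fold change, 24 h over 0 h, for the 71 tested features that share an assembly component with a member but are not members (red outline) and for all tested features other than members (grey), as percentages per bin of 1 log2 unit. The red distribution has its median at 3.01, and 58 of its 71 features rose in the test.

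The 172 members, with a median log2 fold change of 4.11, stood against 382 features of A. maculatum that met the same conditions with the 2 times exchanged. The log2 fold changes of these 382 ranged from -7.77 to -2.38 with a median of -3.78. They held 0.477% ± 0.328 of the rest of the library at 24 h and 6.35% ± 0.307 at 0 h (SD, n = 3 each). The members were fewer than this mirror set, and at the time of their higher level they held 2.20% of the rest of the library, against 6.35% for the mirror set at 0 h. Both sets follow from the choice and carry no test. The number of the mirror set is given on the CPM scale of the choice alone. The balance of directions depended on the scaling. Over all tested features 2791 rose and 3221 fell in the main fit, against 752 and 6411 with library totals alone. The same conditions applied to the tables of the other species chose 168 features in A. mexicanum and 87 in A. andersoni, with median log2 fold changes of 3.89 and 3.68. With the times exchanged they chose 3 and 9 features in those species, so that there the mirror set was the smaller one. Features are not matched between species, and these numbers were not compared by a test.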

How the data were processed

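Per the labels, forelimb tips were collected, RNA libraries were made with an Illumina TruSeq kit and about 50000000 read pairs of 100 bp were aimed at per library. The authors deposited expected counts per assembled feature, made with RSEM per the submitters' processing notes. Not given in the sources used here are the RSEM version, the aligner and the assembly. Columns were matched to libraries by their titles, and 0 columns were left unused. The labels say that 5 larvae were pooled per library but not that the pools of a group are separate, so errors and p-values measure the spread between these libraries.

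CPM were computed from the expected counts divided by the column sum without the feature of highest mean share. Whole counts are those within 1e-09 of an integer. The fit used counts rounded to whole numbers, edgeR 4.0.16 in R 4.3.3 with TMM, filterByExpr (minimum count 10, minimum total 15), the older quasi-likelihood method, time as the only term and Benjamini-Hochberg adjustment over 27360 features at a threshold of 0.05, and was tested on simulated data. DESeq2 1.42.0 served as an alternative. At most 2 identifiers are printed, by fixed rules on level and ratio, since features have no gene names. The members, lists and classes were chosen with earlier results of these data known.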

Additional observations from a re-analysis of the deposited data

How the results depend on the processing

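The number of features that met the conditions depended on what CPM were divided by and on the limits set. With the most abundant feature in the library total it was 69, of which 68 were members. TMM gave 164 (134 of them members) and DESeq2 size factors gave 156 (128 members). At 24 h all of these sizes exceeded the rest of the library, and with TMM they were 1.53, 1.29 and 1.97 times it. The fixed limit of 20 CPM was therefore stricter on these scales. How many members were lost to that limit alone was not counted. With library totals the median log2 fold change of the 172 members was 3.41 in place of 4.11, and that of all tested features was -0.85 in place of -0.15. The distance between members and background was 4.26 against 4.25. A change of library sizes moves the log2 fold changes of all features nearly alike. This distance could thus hardly change, and nothing is read from its agreement. The share of counts held by members at 24 h was 1.04% of library totals, 1.38% with TMM and 1.30% with DESeq2 size factors, by construction of the larger denominators. A ratio of at least 8 left 89 features and no minimum level at 24 h gave 410. Leaving out 1 library gave 175 to 234 features meeting the conditions, which included 157 to 172 of the members. For the original 172 members it gave median log2 fold changes of 3.77 to 4.28 and 24 h shares of 2.00% to 2.44%. The edgeR count over all features was 3486 to 7405 when 1 library was left out. All 172 members were called in every fit run, which their choice on the same contrast makes likely and which is no sign of stability. Alternatives added after the data were seen gave 49 to 57 neighbours of members called higher without 1 library. They gave 52 with library totals alone and 58 or 59 under the remaining fits. The filter was applied anew without 1 library and dropped in 1 fit, so the tested neighbours may differ from the 71 of the main fit. Another such alternative, scaling by TMM, gave 62 members highest in the third 24 h library in place of 101. TMM divides the third 24 h library by the largest factor, 1.97, against 1.53 and 1.29, which lowers it relative to the others for every feature. Why the TMM sizes differ in this way was not tested. No paired analysis was possible because the labels give no replicate numbers that link libraries of the 2 times. Low counts limit the fold changes of members with few 0 h reads.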
